A study of Mus musculus with 10 samples.

Results

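Glutathione S-transferases (GSTs) were followed in the livers of obese mice that drank ethanol and of obese mice that did not. The family was taken as 10 genes of the alpha class (Gsta1, Gsta2, Gsta3 and Gsta4), the mu class (Gstm1, Gstm2, Gstm3 and Gstm4), the pi class (Gstp1) and the theta class (Gstt1). Members were found by the RefSeq accession that each array probe carries. Of the 10 genes, 9 were named by a probe, with 11 probes among 56605 probes in all. No probe was matched to Gsta1, whose transcript level was not analysed here. The 9 genes measured stood among 15086 genes tested.

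Both groups were male wild-type C57BL/6J mice, an inbred laboratory strain, bought at 7 weeks of age and acclimatised for 1 week. For 4 months the HFD_ethanol mice were given a 60% high-fat diet, and once 1 month had passed, ethanol was added to their drinking water for 3 months. The dose was 5 g/kg/day in the first week and 10 g/kg/day afterwards. The HFD_control mice ate the same diet for the same time without ethanol. Obesity from the diet was therefore shared by both groups, and no lean group was part of the comparison. Of 10 mice per group, 5 were drawn at random, and the total liver RNA of each was hybridised to its own 1-colour Agilent array.

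GSTs join the thiol of glutathione to reactive, electron-poor molecules, which makes these more soluble and ready for export from the cell. Liver is rich in them, and they act on drug metabolites, epoxides and the aldehydes and hydroperoxides left by lipid peroxidation, a process that ethanol metabolism is known to promote. Several of their genes are known targets of NRF2, a transcription factor that responds to oxidative and electrophilic stress through antioxidant response elements, and of the drug-sensing nuclear receptors CAR and PXR. Members of a class are close relatives in sequence and many lie next to each other in the genome. The signal of a probe for one member may therefore include RNA of another. Cross-hybridisation was not tested, because the probes' own sequences were not used here.

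Promoter sequences from RefSeq (GRCm38.p6) were searched for the core of the antioxidant response element, since NRF2 is the best known regulator of these genes. The table held 9 of the 10 members, in 11 windows of 300 bases that run from 250 bases before to 50 bases after a transcription start. TGACNNNGC, on either strand, occurred in 12.4% of the 32851 promoters of the table, and the form TGAGNNNGC in 17.6%. One of the 2 forms was present in 27.8% of all promoters and in 3 of the 11 windows. The promoters of those 3 members are shown for the 150 bases before the start, 5′ to 3′ along the gene, with the match in capitals. In Gsta3 (chr1:21240435-21240584, plus strand) the match began 121 bases before the start. In Gstp1 (chr19:4037913-4038062, minus strand) the first match began 74 bases before the start and the last, on the opposite strand, 9 bases before it. In Gstt1 (chr10:75797732-75797881, minus strand) the match began 89 bases before the start.
Gsta3: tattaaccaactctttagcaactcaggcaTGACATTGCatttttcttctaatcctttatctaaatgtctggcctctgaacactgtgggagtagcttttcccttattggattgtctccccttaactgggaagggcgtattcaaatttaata
Gstp1: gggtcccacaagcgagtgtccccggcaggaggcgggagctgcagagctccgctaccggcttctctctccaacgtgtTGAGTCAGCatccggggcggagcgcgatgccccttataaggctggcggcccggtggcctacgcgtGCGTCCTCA
Gstt1: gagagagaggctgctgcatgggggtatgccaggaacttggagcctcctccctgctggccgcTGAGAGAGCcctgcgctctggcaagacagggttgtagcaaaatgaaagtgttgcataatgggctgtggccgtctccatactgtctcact
These letters were not in the windows of the other members.

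The promoters of Gsta1 and Gsta2 are shown because they are the closest pair in the family. Over their best ungapped stretch of 100 bases, 89 bases were identical. The next closest of 36 pairs of members, Gstm1 and Gstm3, had 52 identical bases. The Gsta1 stretch lay at chr9:78230531-78230630 on the plus strand and the Gsta2 stretch at chr9:78347187-78347286 on the minus strand. Capitals mark the bases at which they differ.
Gsta1: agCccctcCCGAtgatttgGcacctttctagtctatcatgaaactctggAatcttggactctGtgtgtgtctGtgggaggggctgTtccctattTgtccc
Gsta2: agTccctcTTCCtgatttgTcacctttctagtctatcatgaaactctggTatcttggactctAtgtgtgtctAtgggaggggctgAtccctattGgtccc
Each stretch ended less than 50 bases before its transcription start.

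The arrays were close in quality. Probes well above background made up 57.2% to 58.9% of spots in the ethanol mice and 55.5% to 59.1% in the controls, and no spot was saturated. The 75th percentile of signal, to which each array was scaled, ranged from 210 to 243 units in the ethanol mice and from 194 to 271 units in the controls. The 10 arrays lay on 3 slides. Slide 1 held ethanol mouse 4 and controls 4 and 5, slide 2 held controls 1 and 3 only, and slide 3 held ethanol mice 1, 2, 3 and 5 and control 2. In this bulk tissue, fewer cells of a type and less RNA per cell cannot be told apart. All values below are multiples of the array's 75th percentile or log2 of such multiples, and a probe's level was compared only with its own level on other arrays.

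No GST gene passed the test between ethanol and control livers. Of the 9 members measured, 0 reached an adjusted p under 0.05 in limma, Benjamini-Hochberg adjusted over all genes, against 0.0199% of all genes. At an unadjusted p under 0.05 there was 1 member, Gsta2, against 12.9% of all genes. The 3 genes past the threshold across the array, named after their values were seen, were Adgrv1, which was lower with ethanol, and Cabp2 and Hsbp1l1, which were higher. The ranges of the 2 groups overlapped for all 9 members, while they were apart for 2.73% of all genes. The fitted difference was below 0 for 6 members and above 0 for 3, with a median of -0.24 on the log2 scale, against a median of 0.02 and a share below 0 of 46.2% for all genes. The median of the members was -0.11 without ethanol mouse 2, -0.12 without ethanol mouse 4, -0.37 without ethanol mouse 1 or 5, -0.38 without control mouse 3 and -0.46 with slide as a fixed block. With quantile normalization in place of the 75th percentile, 7 members were below 0 and 2 above. All 11 probes were well above background on all 10 arrays, so dim signal was not a limit for any of them.

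**Figure D1:**
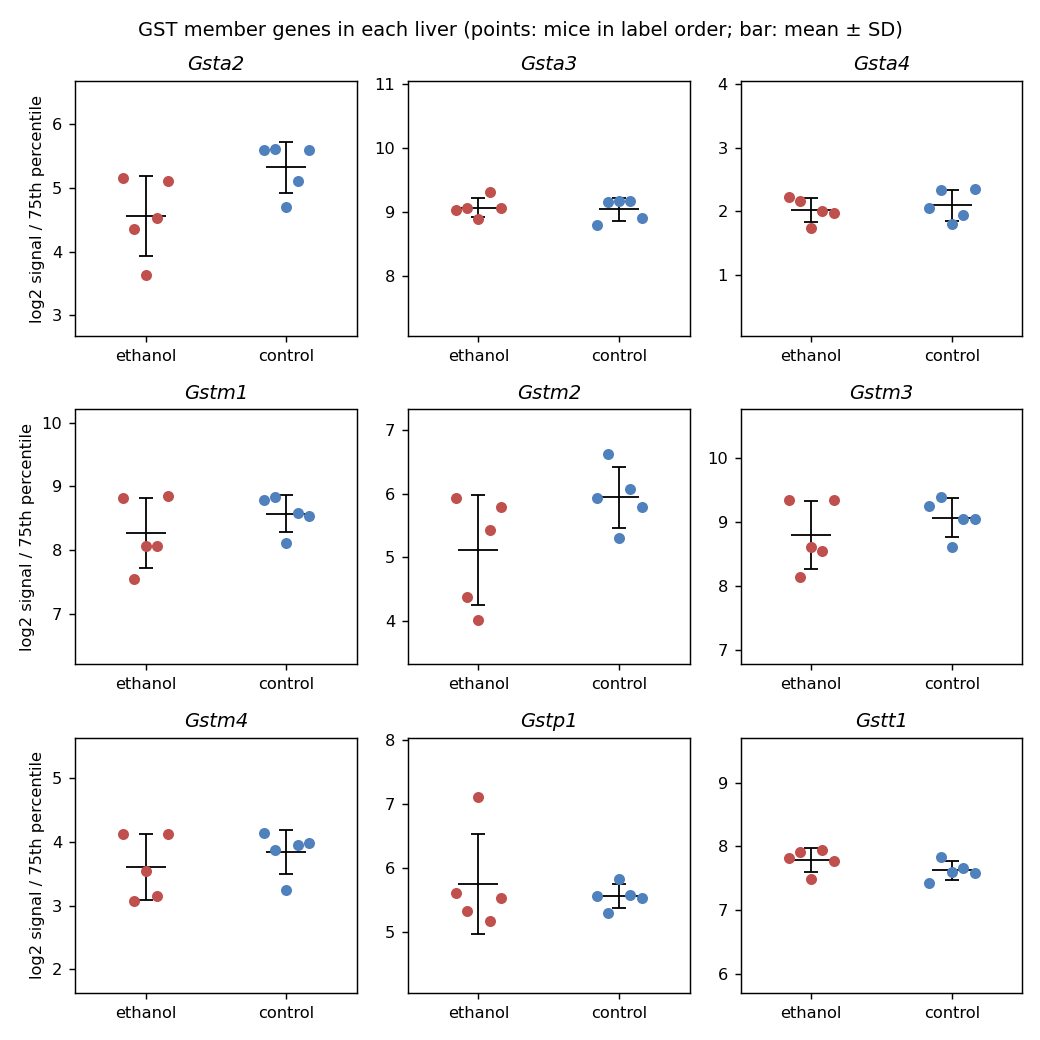
Signal of each GST gene measured, as log2 of the multiple of the array's 75th percentile, in the 5 ethanol mice (left in each panel) and the 5 control mice (right); each point is 1 mouse, bars give mean and SD, and every panel spans the same number of log2 units. Gstm2 and Gsta2 lay lower on average in ethanol mice with overlapping points, and 1 ethanol mouse stood far above the rest for Gstp1.

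In the alpha class, Gsta2, an enzyme active on organic hydroperoxides, had the smallest p of the family. Its signal was 35.7, 20.4, 12.4, 23.0 and 34.6 times the 75th percentile in ethanol mice 1 to 5, against 48.2, 48.8, 26.1, 34.4 and 48.2 times in control mice 1 to 5. The log2 value of every ethanol mouse was under the mean of the controls, but ethanol mice 1 and 5 lay above control mice 3 and 4, so the groups overlapped. The difference was -0.77 ± 0.30 (log2, SE), a 0.588-fold level with a 95% interval of -1.43 to -0.10 on the log2 scale. Its unadjusted p was 0.0276 and its adjusted p 0.343, and the exact two-sided permutation test over the mice gave 0.0476, where 0.00794 is the smallest p this design allows. Because Gsta1 had no named probe and is close to Gsta2, the part of Gsta1 RNA in this signal was not tested.

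Gsta3, which in mice is known for conjugating the reactive epoxide of aflatoxin, showed little difference. Its brighter probe read 521, 533, 474, 636 and 531 times the 75th percentile in the ethanol mice and 444, 573, 579, 575 and 480 times in the controls. The difference was 0.03 ± 0.11 (log2, SE; adjusted p = 0.934), with a 95% interval of -0.21 to 0.26. Its second probe, for another transcript accession, gave 300, 301, 240, 340 and 242 times in the ethanol mice against 239, 239, 302, 307 and 257 times in the controls. That difference was 0.08 ± 0.13, and the 2 probes did not rank the mice alike.

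Gsta4 is specialised for 4-hydroxynonenal, an aldehyde made when lipids peroxidise. It read 4.65, 4.47, 3.34, 4.04 and 3.94 times the 75th percentile in the ethanol mice and 4.13, 5.03, 3.50, 3.86 and 5.10 times in the controls. The difference was -0.07 ± 0.13 (adjusted p = 0.833), and -0.15 without control mouse 3 or -0.00327 without ethanol mouse 3. Its 95% interval ran from -0.36 to 0.22.

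For Gstm1, Gstm2, Gstm3 and Gstm4, the members of the mu class, the fitted differences were below 0, and none passed the test; without the 2 arrays in the first slide column, 2 of the 4 were below 0. Mu enzymes conjugate epoxides and other electrophiles. Gstm2 had the lowest difference of the family. It read 61.0, 20.9, 16.1, 43.2 and 55.4 times the 75th percentile in the ethanol mice and 60.9, 98.8, 39.5, 67.3 and 55.1 times in the controls. Ethanol mice 2 and 3 lay below every control, while ethanol mice 1 and 5 lay among the controls. The mean difference was -0.83 ± 0.39 (log2, SE), a 0.562-fold level with a 95% interval of -1.70 to 0.04. Its unadjusted p was 0.0586, its adjusted p 0.397 and its exact permutation p 0.119.

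Gstm1 was read by 2 probes. The one used for the gene gave 450, 188, 268, 267 and 461 times the 75th percentile in the ethanol mice and 441, 457, 276, 384 and 373 times in the controls. Ethanol mice 2, 3 and 4 and control mouse 3 were the low animals, and ethanol mice 1 and 5 were among the highest. The difference was -0.30 ± 0.25 (adjusted p = 0.610), and -0.12 without ethanol mouse 2. The second Gstm1 probe gave -0.21 ± 0.25 (adjusted p = 0.757 over all probes). Of the 11 member probes, 0 passed the threshold in the fit over probes, against 0.00964% of all probes.

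Gstm3 had almost the same profile over mice. It read 650, 282, 391, 375 and 654 times the 75th percentile in the ethanol mice and 613, 673, 389, 531 and 531 times in the controls. The difference was -0.27 ± 0.25 (adjusted p = 0.644), and -0.11 without ethanol mouse 2. Gstm4 read 17.5, 8.42, 11.7, 8.85 and 17.5 times in the ethanol mice and 17.7, 14.7, 9.47, 15.5 and 15.9 times in the controls. Its difference was -0.24 ± 0.25 (adjusted p = 0.699), and -0.10 without ethanol mouse 2 or -0.38 without control mouse 3. Both genes were again low in ethanol mice 2, 3 and 4 and in control mouse 3.

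The pi-class gene Gstp1 encodes an enzyme that also adds glutathione to protein thiols and that male mouse liver makes in larger amounts than female liver. It read 48.5, 39.8, 138, 36.0 and 46.2 times the 75th percentile in the ethanol mice and 47.1, 39.2, 56.5, 47.4 and 46.0 times in the controls. Ethanol mouse 3 stood alone, and the other 4 ethanol mice lay near the control values. The difference was 0.19 ± 0.32 (adjusted p = 0.818) with all mice and -0.15 without ethanol mouse 3, so its direction rested on that animal. The close relative Gstp2, picked out after its values were seen, was also highest in ethanol mouse 3, with 536, 445, 809, 461 and 575 times in the ethanol mice and 502, 557, 630, 524 and 485 times in the controls, a difference of 0.04 ± 0.16 (adjusted p = 0.933).

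The theta-class gene Gstt1, whose enzyme acts on small halogenated hydrocarbons, read 226, 240, 179, 247 and 217 times the 75th percentile in the ethanol mice and 173, 229, 194, 203 and 192 times in the controls. In 4 of 5 ethanol mice the log2 value exceeded the mean of the controls. The difference was 0.16 ± 0.11 (log2, SE; adjusted p = 0.521), with a 95% interval of -0.08 to 0.40. Together with Gsta3 and Gsta4 it formed the steady end of the family.

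**Figure D2:**
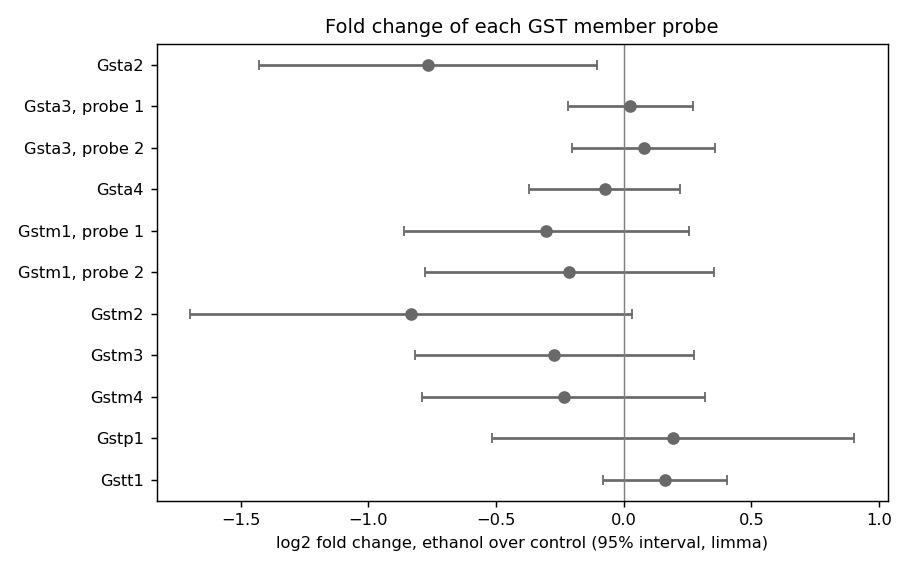
Ethanol minus control difference of each GST probe on the log2 scale, with its 95% interval from limma; 0 means no difference and probe 1 is the one that stands for the gene. The interval of Gsta2 lies wholly below 0 before adjustment, that of Gstm2 reaches just past 0, and the intervals of Gsta3, Gsta4 and Gstt1 are the narrow ones.

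Members also differed in how much they varied between mice. Over the 10 arrays the SD of log2 signal was 0.79 for Gstm2, larger than for 96.6% of all genes. It was 0.64 for Gsta2 (94.0%) and 0.55 for Gstp1 (90.6%). Gstm1, Gstm3 and Gstm4 had SDs of 0.45, 0.43 and 0.43. Gsta4, Gstt1 and Gsta3 had SDs of 0.21, 0.18 and 0.16, against a median of 0.21 for all genes. The SD was larger within the ethanol mice than within the controls for 7 of 9 members, against 58.8% of all genes, and this difference in spread was not tested.

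**Figure D3:**
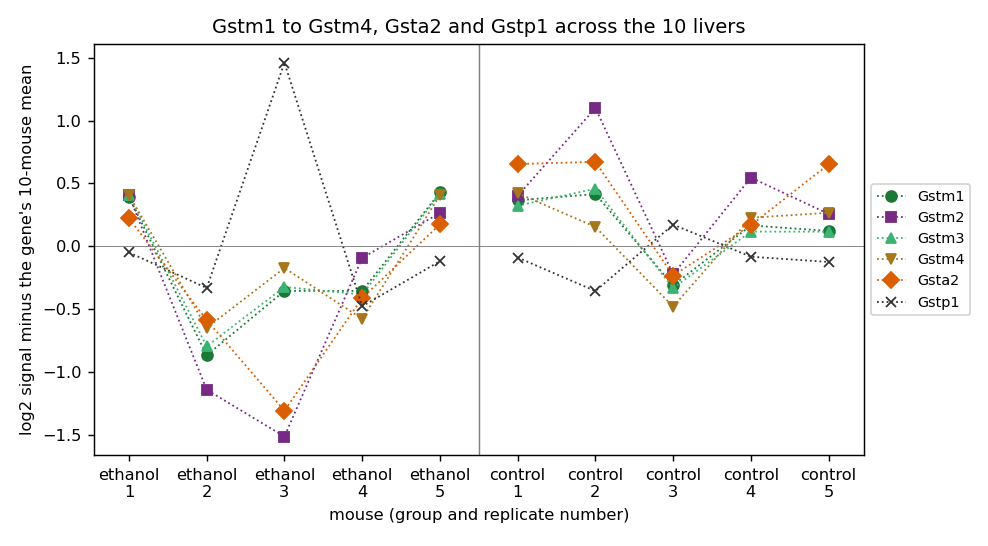
Log2 signal of the more variable GST genes in each mouse, minus the gene's mean over the 10 mice, with ethanol mice on the left and control mice on the right. Gstm1, Gstm3 and Gstm4 run together and are low in ethanol mice 2, 3 and 4 and in control mouse 3, while Gstp1 peaks in ethanol mouse 3.

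The likeness of 2 profiles was measured as the root mean square difference between their log2 values over the 10 arrays, each centred on its own mean. Over the 36 pairs of members, Gstm1 and Gstm3 were nearest, at 0.0372. That distance was smaller than the one between the 2 probes of Gstm1, 0.0935, and the one between the 2 probes of Gsta3, 0.134. Gsta3 and Gstt1 followed at 0.121, Gstm3 and Gstm4 at 0.155, and Gstm1 and Gstm4 at 0.160. The 2 members that were lowest with ethanol, Gsta2 and Gstm2, were 0.323 apart. All these values come from the same 10 RNA samples, so they are a description. Cross-hybridisation between the Gstm1 and Gstm3 probes was not tested, so their signals may not be separate readings. Counts of members take them as 2 genes.

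For Gstm2, the member with the largest SD, 15077 genes that are no member were ranked by the same measure. The nearest were Abhd2 at 0.220, Chil1 at 0.235, Arhgap17 at 0.290, Crebbp at 0.291 and Git2 at 0.291. Abhd2 encodes a lipid hydrolase, Chil1 a secreted chitinase-like protein, Crebbp the acetyltransferase CBP and Git2 an ARF GTPase-activating protein. The choice by likeness to Gstm2 fixes the direction of their differences, which ran from -0.75 ± 0.43 in Crebbp to -0.55 ± 0.35 in Abhd2, and are given as a description.

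Among 19 further GST genes, 13 were tested, 4 were too dim and 2 had no named probe. None of the 13 passed the threshold or reached an unadjusted p under 0.05, with 8 above 0, 5 below 0 and a median of 0.04. The theta-class gene Gstt3 had the smallest p. It read 25.6, 42.1, 18.1, 31.1 and 25.0 times the 75th percentile in the ethanol mice and 14.9, 25.0, 20.2, 20.9 and 21.5 times in the controls, a difference of 0.43 ± 0.21 (adjusted p = 0.412). Without ethanol mouse 2 it was 0.28, and within slide 3 it was 0.078. The mu-class gene Gstm5 followed with 0.25 ± 0.12 (adjusted p = 0.415), the mu-class gene Gstm6 with -0.37 ± 0.20 (adjusted p = 0.447; -0.22 without ethanol mouse 3) and the pi-class gene Gstp3 with 0.25 ± 0.16 (adjusted p = 0.491; 0.16 without ethanol mouse 5). The remaining mu-class gene measured, Gstm7, gave 0.04 ± 0.14 (adjusted p = 0.915). Mgst3, a microsomal enzyme with glutathione peroxidase activity, read 10.4, 3.40, 2.46, 6.49 and 8.85 times in the ethanol mice and 9.29, 8.72, 4.44, 6.85 and 7.49 times in the controls, with ethanol mice 2 and 3 again lowest. Mgst3 had a difference of -0.38 ± 0.39 (adjusted p = 0.694) and was picked out after its values were seen.

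Genes that make glutathione or handle its conjugates showed no call either. For glutathione synthesis and turnover, 13 of 16 genes were tested, 5 above 0 and 8 below, with a median of -0.04 and 0 past the threshold. The smallest p-values belonged to Glrx, which removes glutathione from protein thiols (0.15 ± 0.08, adjusted p = 0.433), and Dpep1, which cleaves cysteinylglycine (-0.28 ± 0.15, adjusted p = 0.444). Of 10 genes for conjugate export and mercapturate formation, 4 were above 0 and 6 below, with a median of -0.08 and 0 past the threshold. Abcc1, an exporter of glutathione conjugates, gave -0.39 ± 0.19 (adjusted p = 0.411), and Nat8, which acetylates cysteine conjugates, gave 0.61 ± 0.36 (adjusted p = 0.473; 0.38 without control mouse 1).

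The regulators of GST genes were measured on the same arrays. Of 13, 7 were above 0 and 6 below, with a median of 0.01 and 0 past the threshold. Cebpa, a hepatocyte transcription factor, gave 0.27 ± 0.08 (unadjusted p = 0.00849, adjusted p = 0.266), and Nr1i2, which encodes PXR, gave 0.34 ± 0.14 (unadjusted p = 0.0302, adjusted p = 0.350). Of 14 NRF2 target genes other than GSTs, 10 were above 0 and 4 below, with a median of 0.08 and 0 past the threshold. The smallest p-values belonged to Me1, the malic enzyme that makes NADPH (0.98 ± 0.27, unadjusted p = 0.00410, adjusted p = 0.231), and Aox1, an aldehyde oxidase (-0.23 ± 0.09, adjusted p = 0.336). Besides Aox1, the genes below 0 were Nqo1 (-0.05 ± 0.27), Hmox1 (-0.27 ± 0.13) and Osgin1 (-0.49 ± 0.27). Of 9 P450 genes and partners listed as CAR and PXR targets, 6 were above 0 and 3 below. Their median was 0.29 and 0 passed the threshold. The 3 below 0 were Cyp2c55 (-0.16 ± 0.20), Cyp3a11 (-0.06 ± 0.18) and Cyp3a13 (-0.07 ± 0.20). Cyp2b10, the usual readout of CAR activity in mouse liver, and the related gene Cyp2b9 gave 0.69 ± 0.46 (adjusted p = 0.523) and 0.67 ± 0.47 (adjusted p = 0.541). Without ethanol mouse 3 they were 1.12 and 1.11, and without control mouse 3 they were 0.45 and 0.43. The 2 signals rose and fell together over the mice, both lowest in ethanol mouse 3 (15.1 and 21.2 times). Cross-hybridisation between their probes was not tested, so they may not be separate readings. At an unadjusted p under 0.05 in limma there were 2 of 13 regulators (Cebpa and Nr1i2) and 2 of 14 NRF2 targets (Me1 and Aox1). There were 0 genes of the CAR and PXR, glutathione and export lists, against 12.9% of all genes.

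**Figure D4:**
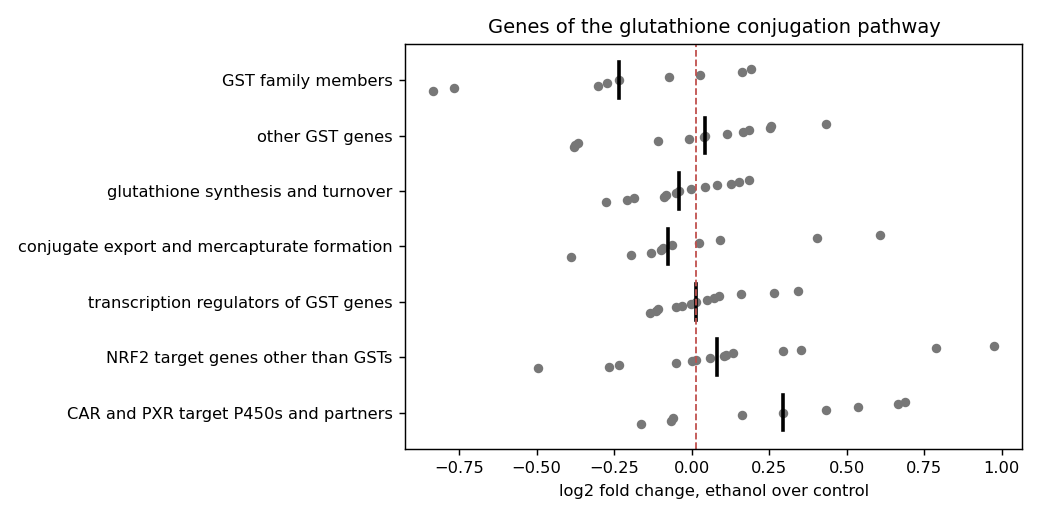
Ethanol minus control difference on the log2 scale for each gene of the GST members and the related lists; each point is 1 gene, black bars are list medians and the dashed line is the median of all genes tested. The GST members have a median of -0.24 and the list of CAR and PXR targets one of 0.29 with points on both sides of 0 in every list drawn.

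Slides and array positions were not balanced between the groups. Of the 5 ethanol arrays, 4 shared slide 3 with 1 control, and both arrays in the first slide column were ethanol mice 2 and 3, the animals lowest for Gstm2. Slide column 4 held controls 1, 4 and 5 only, and it stayed in the fit below without column 1. Within slide 1 the differences were -0.82 for Gsta2 and -0.49 for Gstm2, and within slide 3 they were -1.05 and -1.60. With slide as a fixed block they were -0.94 and -1.10. Slide 1 held 1 ethanol mouse, and slide 3 held 1 control. That animal, control 2, was the highest of all 10 mice for Gsta2 (48.8 times) and Gstm2 (98.8 times). Slide 2 held controls only, so the slide block rests on the same animals. A term for the array column gave -0.43 for Gsta2 and -0.40 for Gstm2, and without the 2 arrays of column 1 the differences were -0.39 and -0.22. Without those 2 arrays the other mu genes were near 0, at 0.0035 for Gstm1, 0.011 for Gstm3 and -0.04 for Gstm4, and the median of the 9 members was -0.03. No member passed the threshold in any of these fits, and the part of array position in the differences was not tested.

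The liver label was checked with 8 hepatocyte markers. All 8 were measured, and their mean log2 signal per mouse was 8.11 to 8.44 in the ethanol mice and 8.16 to 8.51 in the controls. No marker of any cell type passed the threshold. At an unadjusted p under 0.05 in limma there were 4 of 6 stellate cell markers, all 4 lower with ethanol. There were 1 of 8 hepatocyte, 1 of 5 bile duct, 1 of 7 Kupffer and 1 of 5 endothelial cell markers. There were also 1 of 4 lymphocyte and 0 of 2 pancreas and adipocyte markers. The share over all genes was 12.9%. For 5 of 7 bile duct cell markers measured, the mean ran from -1.25 to -0.19 in the ethanol mice and from -0.73 to -0.01 in the controls. For all 6 stellate cell markers it ran from 0.65 to 1.46 in the ethanol mice and from 1.40 to 1.86 in the controls. Col1a1, a collagen gene picked out after its values were seen, had a lower signal in every ethanol mouse than in any control, with a log2 difference of -1.91 (adjusted p = 0.179). The groups were apart, in either direction, for 2.73% of all genes. The ethanol mice 2, 3 and 4, in which Gstm1, Gstm3 and Gstm4 were low, had the lowest means of the bile duct and the stellate cell markers. Control mouse 3, also low for these genes, had the lowest control mean of each set, by a narrow margin. Its bile duct mean was -0.73, against -0.70 in control mouse 5. Its stellate mean was 1.40, against 1.43 in control mouse 2. Gstm2 was not low in ethanol mouse 4, at 43.2 times against 39.5 times in control mouse 3. The 7 Kupffer cell markers ran from 1.56 to 2.57 in the ethanol mice and from 1.61 to 2.42 in the controls, and the 5 endothelial markers from 1.75 to 1.95 in the ethanol mice and from 1.67 to 1.96 in the controls. For 4 of 5 lymphocyte markers the mean ran from -0.90 to -0.20 in the ethanol mice and from -0.62 to -0.28 in the controls. Of 6 pancreas and adipocyte markers, Cpa1, Prss2, Adipoq and Plin1 did not pass the filter on dim probes. The mean of Cfd and Cela1 ran from 2.91 to 5.61 in the ethanol mice and from 4.28 to 5.24 in the controls. The part of these cell types in the GST differences was not tested.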

How the data were processed

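Signal intensity was deposited by the authors for each array as background-subtracted, spatially detrended values from Agilent Feature Extraction 10.7.3.1 (1-colour, Cy3), per the file headers. Each array held the liver RNA of 1 mouse, 150 ng labelled per the labels' protocols. The deposited value table of the authors holds log2 values centred per probe. Its scale and direction were read from its differences between arrays, which matched the scaled intensities (r = 1); its column medians ran from -0.12 to 0.081, and how the authors centred it is not stated in the labels or headers.

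Spots of a probe were averaged after control and outlier spots were left out, divided by the array's 75th percentile over probes, floored at 4 signal units and taken to log2. Probes well above background on at least 4 of 5 arrays of 1 group were kept (31111 of 56605). Accessions were matched to RefSeq (GRCm38.p6): 32989 probes had 1 symbol, 0 had several and 23616 had none. The brightest kept probe stood for a gene (15086 genes). A fit over probes used 31107 probes. The test was limma's moderated fit (lmFit, eBayes; version 3.58.1 under R 4.3.3), with Benjamini-Hochberg adjustment over all genes and a threshold of 0.05. Members were also tested by an exact two-sided permutation test in scipy 1.17.1. The code was tested on simulated data. The closest of 45 pairs of arrays differed by a root mean square of 0.223 log2 units, so no array was taken for a copy. The number of arrays limits the precision.

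Named were all members, the 4 other GST genes and the 2 genes of each other list with the smallest p, and the 5 genes nearest to the most variable member. Gstp2, Gstm7, Mgst3, Col1a1, Cela1 and the 3 genes past the threshold were added after their values were seen. So were Cfd, Elovl3, Hsd3b5, Cyp7b1, Mup20, Cyp2u1, Serpina1e, Nqo1, Hmox1, Osgin1, Cyp2c55, Cyp3a11 and Cyp3a13. Members and lists were chosen with earlier results of these data known. The comparison of SDs, the distances between members and the TGAGNNNGC form were added after the data were seen. Alternatives covered scaling, background, floor, filter, probe rule, value source, slide, array column, replicate number and single arrays.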

Additional observations from a re-analysis of the deposited data

Results flagged for a closer look

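For Gstp1, ethanol mouse 3 had a log2 signal of 7.11, against 5.17 to 5.60 in the other ethanol mice, a gap large for the group's range by Dixon's test. Of 18 groups checked (9 members in ethanol and in control mice) this was the only 1, and chance alone would mark about 1 group in 20. On the same array Gsta2 and Gstm2 were at their lowest of all 10 mice, and Gstp2 was at its highest. Among genes higher in male liver, Elovl3 (60.1 times), Hsd3b5 (58.2), Cyp7b1 (54.8) and Cyp2d9 (166) were also at their highest there. Mup20, Cyp4a12a, Cyp2u1 and Serpina1e were not. This was picked out after the values were seen, and its link to the Gstp1 value was not tested. Cela1, a pancreatic elastase gene picked out after its values were seen, read 39.7 times the 75th percentile in that mouse, against 19.7 to 21.1 times in the other ethanol mice and 20.6 to 26.2 times in the controls. Cfd, the only other gene of the pancreas and adipocyte list measured, did not stand apart there. It read 8.45 times in that mouse, against 2.75 to 121 times in the other ethanol mice and 17.3 to 54.4 times in the controls. The part of pancreatic RNA in the Gstp1 value was not tested. The pancreas markers Cpa1 and Prss2 did not pass the filter on dim probes. That filter asks for signal on at least 4 of 5 arrays of 1 group, so it cannot show signal in 1 mouse alone. The mean log2 signal of the 5 bile duct cell markers measured was -1.13 in that mouse, against a range of -1.25 to -0.19 over the ethanol mice and -0.73 to -0.01 over the controls.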

How the results depend on the processing

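No member passed the threshold under any of the 24 refits, and the lowest adjusted p of a member was 0.119 (Gsta2 with the replicate block). Over all genes, the count past the threshold was 3. It was 5 with normexp background correction on median spot signals and 5 with a floor of 16 signal units. It was 12 with slide as a random block. It was 0 without the filter on dim probes, with slide as a fixed block, within slide 1, within slide 3, with the array column as a covariate and with the replicate block, in limma fits in which between 678 (within slide 3) and 2396 (replicate block) genes had an unadjusted p under 0.05. Leaving out single mice gave 0 (without ethanol mouse 1 or control mouse 4 or 5) to 7 (without ethanol mouse 4). In fits without 1 mouse Gsta2 ran from -0.92 to -0.53 and Gstm2 from -1.04 to -0.56.

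Of 225 member values under alternatives, 12 changed sign, and the cause was not tested. Some of the 225 could not change sign, since the permutation test and the replicate block keep the main difference. Gsta3 gave -0.05 with quantile normalization, -0.15 within slide 3, and -0.036 to 0.071 without single mice. Gstp1 gave -0.37 within slide 1, -0.08 with the column covariate, -0.12 without slide column 1, and -0.15 (without ethanol mouse 3) to 0.34 without single mice. Without slide column 1, Gstm1 gave 0.0035 and Gstm3 0.011. Within slide 3, Gstt1 gave -0.093, Cyp2b10 -0.2, Cyp2b9 -0.22, Cyp2c69 -0.085 and Cdh1 0.35. Within slide 1, Cyp4a12a gave -0.04 and Lect2 0.076. Hsd17b13 gave 0.1 with the column covariate. Rhbg passed the threshold with slide as a random block (0.67, adjusted p = 0.0412). The 9 members split into 6 below and 3 above 0, and into 7 and 2 with quantile normalization, where the median of all genes was -0.015 in place of 0.02.

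The labels number the mice 1 to 5 in both groups, but the numbers do not mark shared animals. Same-numbered mice correlated at -0.11 to 0.324 in their deviations, and 2 of 5 ethanol mice and 1 of 5 controls correlated best with their own number. With the replicate number as a block, Gsta2 gave -0.77 (adjusted p = 0.119) and 0 members passed.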

Other observations

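Genes tied to liver zones and to sex were read beside the GSTs. Of 11 pericentral genes, 6 were above 0 and 5 below, with a median of 0.06 and 0 past the threshold. Rhbg, an ammonium transporter of hepatocytes around the central vein, had the smallest p. It read 9.06, 10.0, 7.67, 9.89 and 8.73 times the 75th percentile in the ethanol mice and 4.94, 5.50, 6.54, 6.09 and 5.16 times in the controls, so the groups did not overlap. Its difference was 0.69 ± 0.11 (unadjusted p = 5.65e-05, adjusted p = 0.0909). The groups were apart, in either direction, for 2.73% of all genes. Lect2, a secreted hepatocyte protein, gave -0.41 ± 0.14 (adjusted p = 0.309). Of 11 periportal genes, 2 were above 0 and 9 below, with a median of -0.11 and 0 past the threshold. Hsd17b13, a lipid droplet protein, gave -0.32 ± 0.21 (adjusted p = 0.505; -0.20 without ethanol mouse 3), and Cdh1, which encodes E-cadherin, gave -0.65 ± 0.46 (adjusted p = 0.541; -0.38 without ethanol mouse 2).

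Of 8 genes that are higher in male mouse liver, 7 were above 0 and 1 below, with a median of 0.42 and 0 past the threshold. Cyp4a12a, a fatty acid hydroxylase, gave 0.59 ± 0.28 (adjusted p = 0.396), and Cyp2d9, a steroid hydroxylase, gave 0.51 ± 0.33 (adjusted p = 0.509; 0.30 without ethanol mouse 3). Of 8 genes that are higher in female liver, 6 were tested and 0 passed the threshold. Sult3a1 passed the filter on dim probes through the ethanol group alone, and the other 5 were above 0. Cyp2c69 gave 0.26 ± 0.10 (adjusted p = 0.347). Sult3a1, a sulfotransferase, was well above background on 4 of 5 ethanol arrays and on 1 of 5 control arrays (adjusted p = 0.330). At an unadjusted p under 0.05 in limma there were Cyp2c69 beside Sult3a1 among the female-biased genes, 0 of 8 male-biased genes, 2 of 11 pericentral genes and 0 of 11 periportal genes, against 12.9% of all genes.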
